A study of Homo sapiens with 12 samples.

Results

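WDR76 and DTL, which encode proteins that bring substrates to the ubiquitin ligase CUL4-DDB1, were examined in HL-60 cells together with a further such receptor, DDB2, and with the 4 genes of the ligase core, DDB1, CUL4A, CUL4B and RBX1. These 7 genes were picked by symbol from the 58233 genes of the expression table, and 6 of them (all but DDB2) had values high enough to be tested among 7820 genes. The set was proposed with results of palbociclib against untreated cells in view. There WDR76 and DTL were low and the core differed little, with CUL4A slightly lower. The values in that contrast are therefore given as a description, without a p-value for the 7 genes.

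HL-60 is a human cell line established from acute myeloid leukaemia, labelled here as wild type. The cells were left untreated or were treated for 3 h with 100 nM all-trans retinoic acid (ATRA, the ligand of the retinoic acid receptors), with 500 nM palbociclib (an inhibitor of the cell cycle kinases CDK4 and CDK6) or with both, called the combination. Polyadenylated RNA was sequenced in 3 libraries per group, 12 in all. The labels name no vehicle for the untreated cells, and all groups come from 1 cell line.

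CUL4-DDB1 ligases attach ubiquitin to proteins. The cullin, CUL4A or CUL4B, is the scaffold: RBX1 sits at one end and binds the ubiquitin-charged enzyme, while DDB1 sits at the other and holds an exchangeable receptor, usually a WD40 repeat protein, which selects the substrate. DTL (also called CDT2) is the receptor that acts on substrates bound to PCNA on chromatin, such as the replication licensing factor CDT1, the CDK inhibitor p21 (CDKN1A) and the histone methyltransferase KMT5A. DDB2 recognises DNA damaged by ultraviolet light, and WDR76 is a WD40 protein known to bind DDB1 and damaged DNA. DTL and many genes of DNA replication are transcribed around the start of S phase under E2F transcription factors. E2F is held back by the retinoblastoma protein, which CDK4 and CDK6 phosphorylate.

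Values are RPKM, reads scaled to gene length and library size, which were deposited as whole numbers. A difference of 1 RPKM is thus the smallest that can be seen, and the table does not give the number of reads behind a value. Library sums lay between 358455 and 390247 RPKM. Of 7 myeloid marker genes, 6 were at 5 RPKM or more in every library, with MPO at 1077 to 1579 RPKM, while ELANE, encoding neutrophil elastase, was at 0 to 1 RPKM. All 8 markers of other blood cells and all 3 markers of non-blood tissues were listed at 0 in every library.

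The stretch of DNA between DTL and its neighbour INTS7 is shown because it holds matches to both E2F core motifs searched. DTL (ENSG00000143476) lies on chromosome 1 from 212035553 to 212107400 on the plus strand of hg38. In RefSeq, on GRCh38.p14, its start and that of INTS7, which is transcribed the other way, are 191 bases apart. The 190 bases between them, chr1:212035558-212035747 on the plus strand, have a GC content of 66.3% and end 1 base before the RefSeq start of DTL. GENCODE v44 also lists a DTL transcript that starts at 212035553. Capitals mark the E2F cores.
DTL: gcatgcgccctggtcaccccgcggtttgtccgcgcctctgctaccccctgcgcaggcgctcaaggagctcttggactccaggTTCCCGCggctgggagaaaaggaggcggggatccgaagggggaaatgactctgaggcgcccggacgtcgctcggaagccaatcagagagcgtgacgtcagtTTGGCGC
The first match, TTCCCGC, covers bases -108 to -102 and the second, TTGGCGC, bases -7 to -1, counted back from the RefSeq start of DTL. A CCAAT box lies between them at -31 to -27. Both strands were searched in windows from 250 bases before to 50 bases after each RefSeq start. TTCCCGC was present in 6.55% of 35116 promoter windows, TTGGCGC in 3.04%, either in 9.23% and both in 0.362%. Windows were at hand for 6 of the 7 genes, all but WDR76 (13 windows). Among these 6, an E2F core was found for DTL, DDB2, CUL4A and CUL4B, and both cores for DTL. This counts genes, some with several windows, whereas the shares above count windows, so they cannot be compared directly. Such matches describe the letters in the window and do not show that a factor was bound.

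WDR76 (ENSG00000092470; chromosome 15, 43826980 to 43868412, plus strand) was at 14, 15 and 14 RPKM in the untreated libraries, with a mean of 14.3 ± 0.577 (SD, n = 3 here and below). It was at 9, 11 and 9 RPKM with ATRA (9.67 ± 1.15), at 4, 5 and 3 RPKM with palbociclib (4.0 ± 1.0) and at 5, 6 and 4 RPKM with the combination (5.0 ± 1.0). The untreated libraries were above all others, the ATRA libraries stood between, and the palbociclib and combination libraries overlapped with each other only. The mean with palbociclib was 0.279 times the untreated mean, and rounding alone leaves this ratio between 0.236 and 0.325. These and later rounding limits assume rounding to the nearest whole number, which the sources used here do not state. In bulk RNA, fewer cells that express a gene and less of its RNA per cell cannot be told apart, which holds for every difference given here.

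DTL showed the same order of groups at a higher level per length. It was at 23, 23 and 24 RPKM in untreated cells (23.3 ± 0.577), at 14, 18 and 19 RPKM with ATRA (17.0 ± 2.65), at 8, 10 and 9 RPKM with palbociclib (9.0 ± 1.0) and at 9, 12 and 11 RPKM with the combination (10.7 ± 1.53). Again no untreated library overlapped with a treated one, and the ATRA libraries lay above both groups given palbociclib. The ratio of the palbociclib to the untreated mean was 0.386, with 0.357 to 0.416 as the limits set by rounding.

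DDB2 (ENSG00000134574; chromosome 11, 47214465 to 47239217, plus strand), the third receptor, was low throughout. It was listed at 3 RPKM in all 3 untreated and all 3 ATRA libraries, and at 3, 3 and 2 RPKM in both groups given palbociclib. At this level 1 step of rounding hides much: the ratio of palbociclib to untreated, 0.889, could lie anywhere between 0.619 and 1.27. DDB2 was below the filter of 5 RPKM in 3 libraries and was not tested.

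The core was described next. DDB1 (ENSG00000167986; chromosome 11, 61299451 to 61342596, minus strand), the adaptor shared by all receptors, was the highest of the 7 genes in every group. It was at 32, 31 and 31 RPKM untreated, 28, 30 and 32 RPKM with ATRA, 30, 32 and 35 RPKM with palbociclib and 28, 31 and 31 RPKM with the combination. The 4 groups overlapped. RBX1 (ENSG00000100387; chromosome 22, 40951347 to 40973309, plus strand), the RING subunit, also overlapped between all groups. It was at 20, 20 and 23 RPKM untreated, 24, 21 and 20 RPKM with ATRA, 24, 21 and 20 RPKM with palbociclib and 25, 22 and 20 RPKM with the combination.

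The cullins differed from each other in level. CUL4A (ENSG00000139842; chromosome 13, 113208193 to 113267108, plus strand) was at 19, 20 and 19 RPKM in untreated cells, at 16, 17 and 16 RPKM with ATRA, at 17, 18 and 18 RPKM with palbociclib and at 16 RPKM in all 3 combination libraries. Its untreated libraries lay above all treated ones, by 1 to 4 RPKM. CUL4B (ENSG00000158290; X chromosome, 120505920 to 120604074, minus strand) was at 5, 6 and 5 RPKM untreated and at 5 to 7 RPKM in each treated group, and the groups overlapped. As a percentage of CUL4A in the same library, CUL4B was 27.5 ± 2.13% in untreated cells, 38.7 ± 6.60% with ATRA, 33.9 ± 4.76% with palbociclib and 39.6 ± 7.22% with the combination. The low level per length of CUL4B depends on the gene length used, which the deposited table does not state. Its exons in GENCODE v44 cover 33815 bases, against 7813 for CUL4A and 4054 for WDR76.

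**Figure D1:**
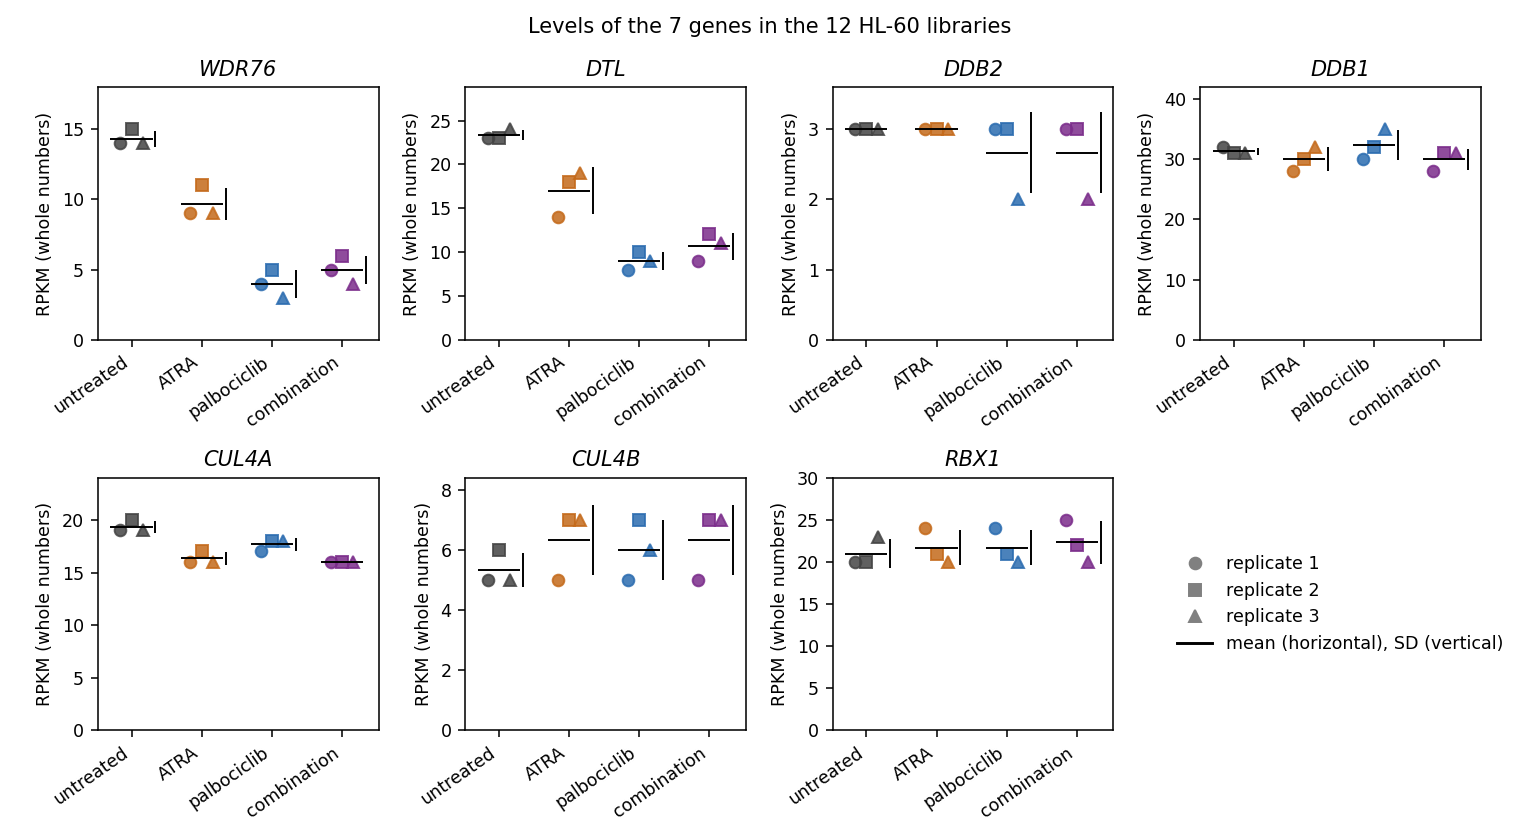
RPKM of the 7 genes (vertical axes, from 0) in the 12 libraries by treatment group, with symbols for the replicate number, horizontal lines for group means and vertical lines for the SD. WDR76 and DTL were highest in untreated cells (14.3 and 23.3 RPKM) and lowest with palbociclib (4.0 and 9.0 RPKM), while DDB1 stayed between 28 and 35 RPKM and RBX1 between 20 and 25 RPKM.

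Ranked by level per length, the untreated order was DDB1 (31.3 RPKM), DTL (23.3), RBX1 (21.0), CUL4A (19.3), WDR76 (14.3), CUL4B (5.33) and DDB2 (3.0). The libraries of DTL and RBX1 met at 23 RPKM and those of RBX1 and CUL4A at 20 RPKM, so these neighbours were not separated. With palbociclib the order was DDB1 (32.3 RPKM), RBX1 (21.7), CUL4A (17.7), DTL (9.0), CUL4B (6.0), WDR76 (4.0) and DDB2 (2.67). There CUL4B and WDR76 met at 5 RPKM, and WDR76 and DDB2 met at 3 RPKM. DTL thus stood above both cullins in untreated cells and below CUL4A with palbociclib, with no overlap of libraries in either case. In ATRA-treated cells, by contrast, DTL (17.0 RPKM) and CUL4A (16.3 RPKM) overlapped.

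Set against DDB1, the adaptor that they share, the RNA levels of WDR76 and DTL were a smaller percentage in every treated group than in untreated cells. These are the receptors chosen for being low with palbociclib. DDB2, at 2 to 3 RPKM, was not set against DDB1. Ratios of RNA levels do not give the proportions of proteins in the ligase. WDR76 was 45.8 ± 2.38% of the DDB1 level in the same library in untreated cells, 32.3 ± 4.27% with ATRA, 12.5 ± 3.60% with palbociclib and 16.7 ± 3.38% with the combination. DTL was 74.5 ± 2.78%, 56.5 ± 5.60%, 27.9 ± 2.96% and 35.4 ± 3.28% of DDB1 in the same order of groups. CUL4A was 61.7 ± 2.60% of DDB1 untreated and 53.5% to 54.8% in the treated groups. For RBX1 the group means lay between 67.1% and 74.9%, with an SD of 6.25 to 12.8 percentage points.

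Differences were tested on log2(RPKM + 0.1) with limma over all 12 libraries and with Benjamini-Hochberg adjustment over the 7820 genes. The threshold for a call was an adjusted p-value of 0.001, and genes that passed at 0.05 are also given. In palbociclib against untreated cells, the contrast behind the choice of genes, WDR76 differed by -1.84 and DTL by -1.37 on the log2 scale, and CUL4A by -0.13, CUL4B by 0.16, DDB1 by 0.04 and RBX1 by 0.04. In that contrast 2 of the 6 genes tested were called lower, where 0.486% of all genes were, and 3 of 6 had groups that did not overlap, against 9.48% of all genes. Nothing is read from these counts because the genes were chosen there.

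The combination against untreated cells shares its untreated libraries with that contrast, so lower values of WDR76 and DTL were favoured by the choice of genes. WDR76 fell by 1.52 on the log2 scale (SE 0.18, adjusted p = 0.000131) and DTL fell by 1.13 (SE 0.13, adjusted p = 0.000115). CUL4A differed by -0.27 (SE 0.05, adjusted p = 0.00218) and passed at 0.05 but not at 0.001. With the replicate number as a block its adjusted p was 0.000523, past the stricter threshold. Replicate numbers paired untreated with treated libraries only weakly, however (correlations of 0.0453 to 0.367), so the block fit does not settle this call. A filter of 1 RPKM or no filter also took CUL4A past 0.001. CUL4B (0.23), DDB1 (-0.06) and RBX1 (0.09) did not pass at 0.05, with adjusted p of 0.365 to 0.587. In all, 2 of 6 genes were called lower, where 4.28% of all genes were, and 3 of 6 were lower at 0.05, where 17.7% were. As WDR76 and DTL are among them, nothing is read from these counts. Groups did not overlap for the same 3 genes, as for 20.6% of all genes. The calls of WDR76 and DTL rest on the spread shared by the 4 groups: in a fit of the 6 libraries compared alone, adjusted p was 0.00307 for each. Without untreated replicate 1 or 2 WDR76 missed 0.001, with an adjusted p of up to 0.00123.

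ATRA against untreated cells also shares the untreated libraries, with the same limit for WDR76 and DTL and for the counts. WDR76 was lower by 0.57 on the log2 scale (SE 0.18, adjusted p = 0.0489), DTL by 0.47 (SE 0.13, adjusted p = 0.0301) and CUL4A by 0.24 (SE 0.05, adjusted p = 0.00631). None was called at 0.001, where 1.94% of all genes were called lower. At 0.05 these 3 of 6 passed, where 11.6% of all genes did, and they also had groups that did not overlap, as had 17.3% of all genes. For WDR76 and DTL passing at 0.05 depended on the genes tested: with a filter of 1 RPKM adjusted p was 0.0946 and 0.0629. It depended on the libraries too. For WDR76 adjusted p was above 0.05 without any 1 untreated or ATRA library, without palbociclib replicate 1 and without combination replicate 1 (up to 0.139). For DTL this was so without any 1 untreated library or without ATRA replicate 1 or 2 (up to 0.0866). Median-ratio scaling gave 0.0514 for WDR76, and the 6 libraries compared alone gave 0.0588 for DTL. Their direction was the same without any 1 library, at -0.66 to -0.52 for WDR76 and -0.55 to -0.33 for DTL. CUL4B (0.23), DDB1 (-0.06) and RBX1 (0.04) had adjusted p of 0.414 to 0.804.

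**Figure D2:**
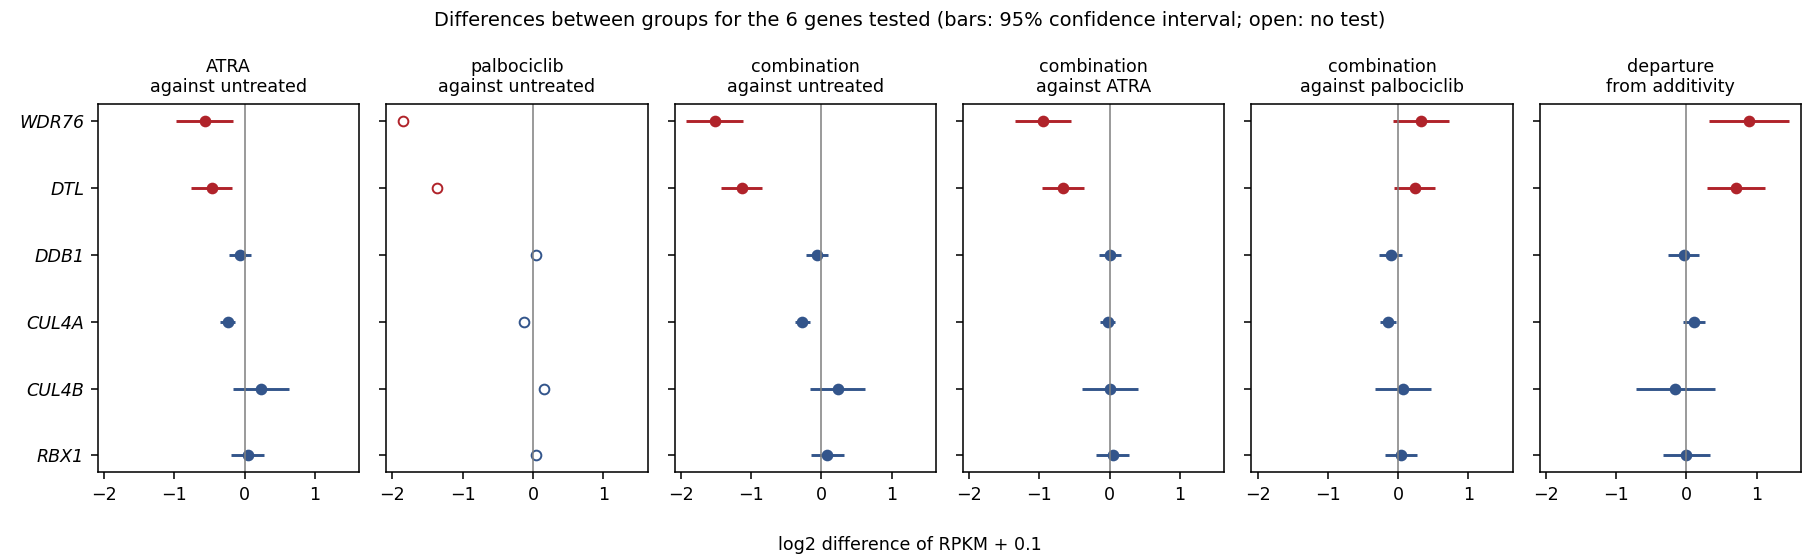
Log2 differences of RPKM + 0.1 (horizontal axis) for the 6 genes tested in 5 comparisons and for the departure from additivity, with 95% confidence intervals as bars. Red marks the receptors and blue the core; open symbols show palbociclib against untreated, for which no test is given. WDR76 (-0.95) and DTL (-0.67) lay below 0 between the combination and ATRA, where the 4 core genes lay between -0.03 and 0.04.

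The combination against ATRA shares no library with the contrast used to choose the genes, and it asks what palbociclib added in cells given ATRA. WDR76 was lower in the combination by 0.95 on the log2 scale (SE 0.18, 95% confidence interval -1.35 to -0.55), with a ratio of means of 0.517. DTL was lower by 0.67 (SE 0.13, -0.96 to -0.37), with a ratio of 0.627. For both genes every combination library lay below every ATRA library, and same-numbered libraries differed by 4 to 5 RPKM for WDR76 and 5 to 8 RPKM for DTL. This held for 2 of the 6 genes, where 2.52% of all genes had groups that did not overlap in this direction. After adjustment over 7820 genes neither passed, with adjusted p of 0.102 for WDR76 and 0.133 for DTL. Without any 1 library neither passed at 0.05, with adjusted p of 0.0627 to 0.522 for WDR76 and 0.0849 to 0.581 for DTL. Neither passed in a fit of the compared libraries alone, and over all fits adjusted p reached 0.676 for DTL. The differences kept their direction without any 1 library, at -1.09 to -0.80 for WDR76 and -0.80 to -0.55 for DTL. By limma 0% of all genes were called lower at 0.001 and 0.115% at 0.05, while 243 genes were lower at an unadjusted p under 0.05.

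Replicate numbers paired the treated libraries, as described under the processing. With the number as a block, WDR76 (adjusted p = 0.018) and DTL (adjusted p = 0.0181) were lower in the combination than with ATRA at 0.05, where 0.639% of all genes were, and by limma 0 genes were called at 0.001, with 452 lower at an unadjusted p under 0.05. The core genes differed by -0.03 (CUL4A), 0.00 (CUL4B), 0.00 (DDB1) and 0.04 (RBX1), each with an adjusted p of 1. For DDB1 the 95% confidence interval ran from -0.16 to 0.16.

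Between the combination and palbociclib, WDR76 and DTL lay slightly the other way. The palbociclib libraries are those in which these genes were chosen as low, so a higher combination value was favoured in advance. For WDR76 and DTL the tests given here are therefore a description. WDR76 was higher by 1 RPKM in the combination library of each number (log2 difference 0.33, SE 0.18, adjusted p = 0.334), and DTL was higher by 1, 2 and 2 RPKM (0.24, SE 0.13, adjusted p = 0.33). The groups overlapped for both. Rounding alone allows a ratio of 1.0 to 1.57 for WDR76 and of 1.07 to 1.31 for DTL. CUL4A lay lower (-0.14, SE 0.05, adjusted p = 0.102) with groups that did not overlap, as for 9.86% of all genes. None of the 6 genes passed at 0.05, where 12.5% of all genes passed in one direction or the other. With the block, adjusted p was 0.0644 for WDR76, 0.0738 for DTL, 0.0246 for CUL4A and 0.199 for DDB1, in a fit where 23.5% of all genes passed at 0.05. A block fit of the 9 treated libraries alone, added after the data were seen, gave 0.0469, 0.0298, 0.015 and 0.0317. In that fit 36.2% of 7666 genes passed at 0.05, and DDB1, the adaptor, was lower in the combination by 0.11 on the log2 scale.

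The departure from additivity is the change with ATRA in the presence of palbociclib minus that in its absence, on the log2 scale. ATRA went with 4 to 5 RPKM less WDR76 in cells without palbociclib and with 1 RPKM more in cells with it. The departure was 0.89 for WDR76 (SE 0.26, 95% confidence interval 0.33 to 1.46) and 0.70 for DTL (SE 0.19, 0.29 to 1.12). It contains, with reversed sign, palbociclib against untreated cells, where these genes were chosen as low. A positive departure was thus favoured for them in advance, and nothing is read from its size or interval. For CUL4A, CUL4B, DDB1 and RBX1 the departure was 0.10, -0.16, -0.04 and 0.00. After adjustment no departure was called: adjusted p was 1 for each of the 6 genes, and 0.159 for WDR76 and 0.157 for DTL with the block. By limma 0% of all genes passed at 0.05, and 154 genes had a positive and 82 a negative departure at an unadjusted p under 0.05.

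Genes were then ranked by how closely their log2(RPKM + 0.1) followed WDR76 and DTL over the 12 libraries. These correlations (Pearson's r) are descriptions: the points come from 4 groups, and the genes compared share each library. For WDR76 the closest was RRM2 (0.988), followed by TCF19 (0.979), POLD3 (0.979), a subunit of DNA polymerase delta, RRM1 (0.979) and RFC5 (0.978), a subunit of the clamp loader. RRM1 and RRM2 are the subunits of ribonucleotide reductase. DTL was 34th for WDR76, and WDR76 was 17th for DTL, with r = 0.951. For DTL the closest were CLSPN (0.994), which encodes the checkpoint mediator claspin, UBR7 (0.974), ORC1 (0.974) of the origin recognition complex, RMI1 (0.970) and WEE1 (0.969), the kinase that restrains CDK1 and CDK2.

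CLSPN followed DTL closely in size as well, at 15.3, 10.7, 6.0 and 7.0 RPKM in the order untreated, ATRA, palbociclib and combination. RRM2 was at 69.0, 57.7, 40.3 and 43.0 RPKM. Its palbociclib mean was thus a larger part of the untreated one than for WDR76. The core did not rank near WDR76 or DTL. The correlation with WDR76 was 0.48 for CUL4A, -0.13 for RBX1, -0.19 for DDB1 and -0.19 for CUL4B, and with DTL it was 0.51, -0.36, 0.06 and -0.05.

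**Figure D3:**
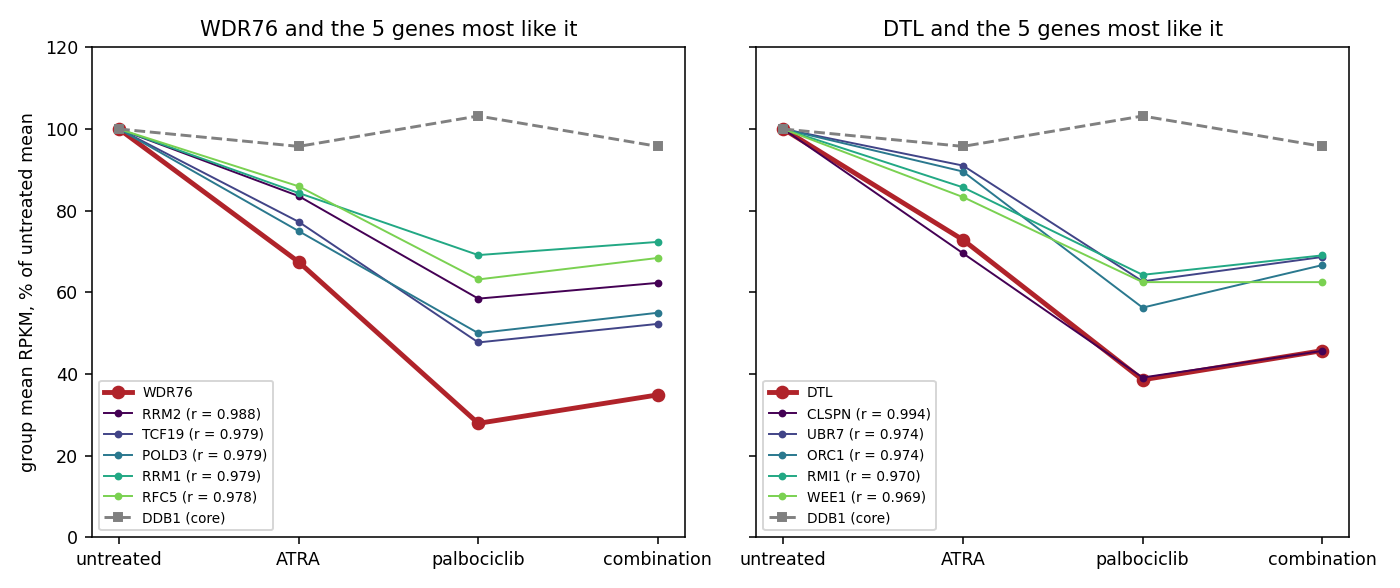
Group mean RPKM as a percentage of the untreated mean (vertical axis) by treatment, for WDR76 (left) and DTL (right), the 5 genes most correlated with each over 12 libraries, and DDB1 for comparison. All 10 genes were lowest or equal lowest with palbociclib, and CLSPN lay almost on the line of DTL.

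The rest of the cullin-RING system was covered by 6 lists of 67 genes written from general knowledge, of which 51 were tested. At 0.001, 2 of the 51 were called with ATRA against untreated cells, where 4.72% of all genes were, and 3 with the combination against untreated cells, where 8.04% were. DCUN1D4, called in both, passed the filter only through its untreated libraries. None was called with palbociclib against untreated cells (0.499% of all genes) or in the combination against palbociclib (3.11%), and none in the combination against ATRA or for the departure from additivity (0% of all genes for both). At an unadjusted p under 0.05 in limma, the 51 gave 15 with ATRA (33.1% of all genes), 15 with palbociclib (17.4%) and 22 with the combination (40.5%), each against untreated cells. They gave 3 in the combination against ATRA (3.67% of all genes), 5 in the combination against palbociclib (23.8%) and 2 for the departure (3.02%). All 3 in the combination against ATRA were lower and belonged to the list of substrates and partners of DTL and DDB2. Genes named below for passing at 0.05 only, and those not tested, were picked after their values were seen.

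Of 23 other substrate receptors, 16 were tested and none was called at 0.001 in any comparison by limma. In the combination against untreated cells an unadjusted p under 0.05 was reached by 4 with a higher level (17.7% of all genes) and 3 with a lower level (22.8%). Their median log2 difference was 0.06, against -0.01 for all genes, and the range was -0.42 to 0.54. At an adjusted p of 0.05, 3 were higher and 0 lower there, where 12.7% of all genes were higher and 17.7% lower. They were DCAF8 at 4.33 untreated and 6.33 RPKM in the combination (0.54, adjusted p = 0.00416), FBXW5 at 20.3 and 25.7 RPKM (0.34, adjusted p = 0.0236) and DCAF15, the receptor engaged by anticancer sulfonamides, at 16.3 and 18.7 RPKM (0.19, adjusted p = 0.0186). DCAF1, the receptor used by a lentiviral accessory protein, was at 16.7 RPKM untreated and 12.7 RPKM in the combination (-0.40, adjusted p = 0.054). Between the combination and ATRA these 16 ranged from -0.11 to 0.25, beside -0.95 for WDR76 and -0.67 for DTL. DDA1, which associates with DDB1, was the 1 of 2 DDB1 partners tested and was at 9.0 to 10.3 RPKM in the group means.

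Cullins become active when NEDD8 is attached to them. Of 10 genes for this step 7 were tested, with a median of -0.15 in the combination against untreated cells. DCUN1D4, a co-factor of NEDD8 attachment, was at 6, 6 and 5 RPKM in untreated cells, at 3 RPKM in all 6 libraries given ATRA and at 4 RPKM in all 3 palbociclib libraries. It fell by 0.89 on the log2 scale both with ATRA (SE 0.09, adjusted p = 6.57e-05) and with the combination (adjusted p = 4.73e-05). The untreated libraries did not overlap with the treated ones, but at this level the values stand only 2 or 3 rounding steps apart. DCUN1D4 met the filter of 5 RPKM only through its untreated libraries. A fall against them was thus favoured by the filter, and its calls are a description.

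The COP9 signalosome removes NEDD8, and CAND1 exchanges receptors on cullins. Of 13 such genes 11 were tested and none was called at 0.001 by limma (in the combination against untreated cells 0 with a higher and 4 with a lower level had an unadjusted p under 0.05, beside 17.7% and 22.8% of all genes), with medians between -0.05 and 0.00 in all 6 comparisons. At 0.05, 2 of the 11 were lower in the combination than in untreated cells, where 17.7% of all genes were. These were CAND1 (18.7 and 13.7 RPKM, -0.45, adjusted p = 0.00558) and COPS3 (75.0 and 61.7 RPKM, -0.29, adjusted p = 0.0288). With the replicate block CAND1 passed 0.001 (adjusted p = 0.000697), with the limit that untreated libraries paired only weakly with treated ones. COPS7A, also named for the size of its difference from ATRA, was at 13.7 RPKM untreated and 15.3 RPKM in the combination (adjusted p = 0.27).

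Of 10 other cullins and core subunits 9 were tested. CUL1, the scaffold of SCF ligases, was at 46, 46 and 47 RPKM in untreated cells, 37, 34 and 35 RPKM with ATRA, 41, 42 and 42 RPKM with palbociclib and 35, 32 and 33 RPKM with the combination. The groups with and without ATRA did not overlap. CUL1 fell by 0.39 with ATRA (SE 0.05, adjusted p = 0.000355) and by 0.47 with the combination (adjusted p = 6.45e-05). It was also lower in the combination than with palbociclib (-0.32, adjusted p = 0.00167, and 0.000701 with the replicate block). In the combination against untreated cells CUL2 (-0.21, adjusted p = 0.027) and CUL3 (-0.26, adjusted p = 0.012) were lower at 0.05, and CUL7 was higher (2.67 and 5.0 RPKM, 0.89, adjusted p = 0.0138). CUL7 was at 3, 2 and 3 RPKM untreated and at 4, 5 and 6 RPKM in the combination, few rounding steps apart. It reached 5 RPKM only in libraries given palbociclib, mostly of the combination. A higher value there was thus favoured by the filter, and this result is a description.

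Of 9 substrates and partners of DTL and DDB2, 7 were tested. GMNN, which encodes geminin, the inhibitor of CDT1, was at 36, 40 and 40 RPKM untreated, 33, 31 and 28 RPKM with ATRA, 24, 22 and 18 RPKM with palbociclib and 25, 24 and 19 RPKM with the combination. It fell by 0.78 in the combination against untreated cells (SE 0.12, adjusted p = 0.000943) and was the 1 gene of this list called at 0.001. CDT1, the licensing factor itself, had group means of 14.3, 12.3, 8.0 and 9.0 RPKM in the same order (-0.66 in the combination against untreated cells, adjusted p = 0.00268). PCNA, the clamp that DTL substrates bind, had group means of 264, 227, 142 and 169 RPKM (-0.66, adjusted p = 0.00778). With the replicate block adjusted p was 0.000605 for CDT1 and 0.000502 for PCNA, past 0.001, as was PCNA in palbociclib against untreated cells (0.00768 without the block and 0.000561 with it). These block values have the limit that untreated libraries paired only weakly with treated ones. KMT5A, TDG, XPC and FBH1 did not pass at 0.05 in the combination against untreated cells. Between the combination and ATRA, log2 differences of this list ran from -0.46 to 0.0. There 3 of the 7 were lower at an unadjusted p under 0.05 in limma, beside 3.67% of all genes in either direction. GMNN was lower by 0.44 (SE 0.12, adjusted p = 0.455), and none of the 7 passed at an adjusted p of 0.05.

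The DTL substrate CDKN1A was low and was not tested. It was listed at 1 RPKM in all 3 untreated and all 3 palbociclib libraries and at 3, 5 and 4 RPKM both with ATRA and with the combination. Its libraries with ATRA lay above those without, which is the reverse of the order seen for DTL between ATRA and untreated cells. In contrast to DTL, CDKN1A had the same values with and without palbociclib. These are RNA levels, whereas DTL acts on the protein, so the action of DTL on its substrate was not tested.

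**Figure D4:**
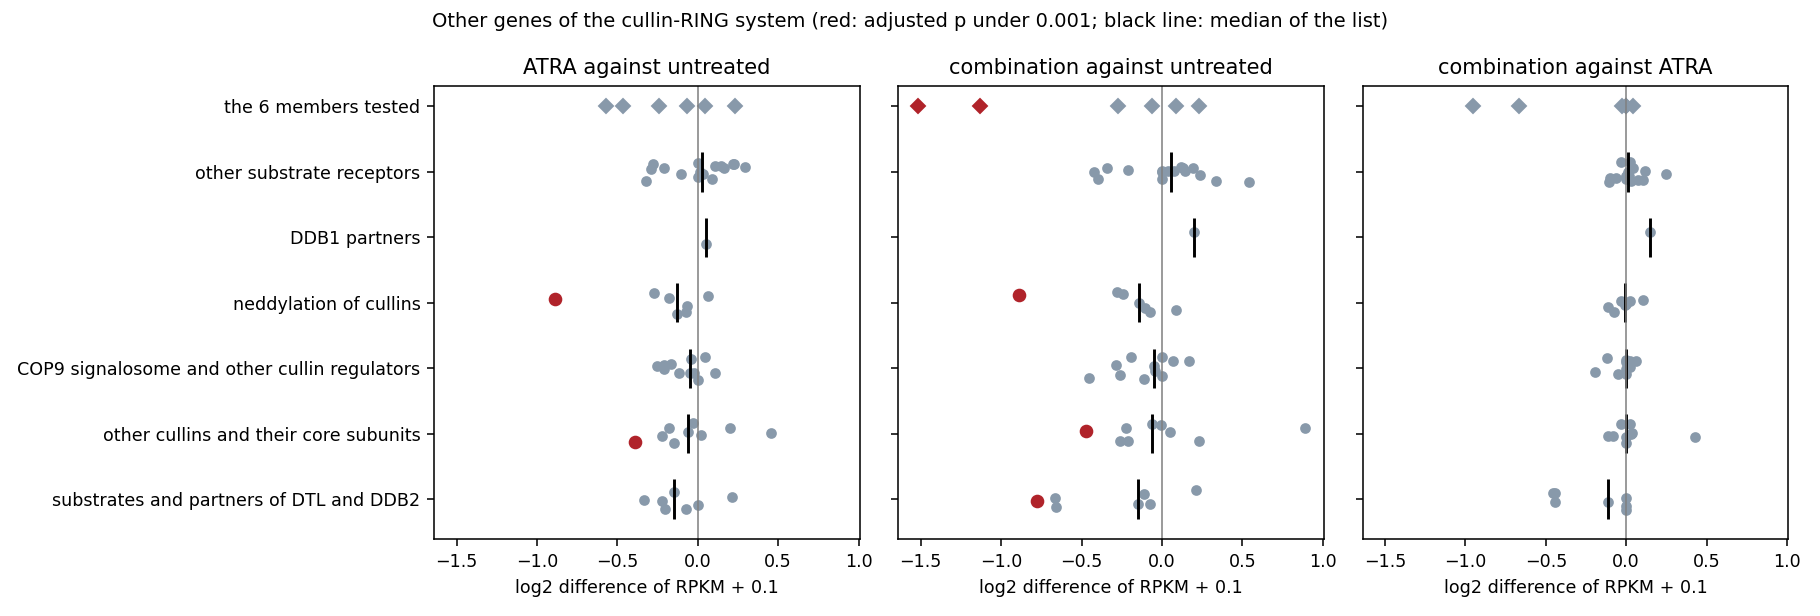
Log2 differences of RPKM + 0.1 (horizontal axes) of the 6 genes tested (diamonds) and of the tested genes of 6 lists (circles) in 3 comparisons, with red for an adjusted p-value under 0.001 and black lines for list medians. In the combination against untreated cells WDR76 (-1.52) and DTL (-1.13) lay below all 51 list genes, of which DCUN1D4 was lowest at -0.89.

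Genes that overlap or adjoin the 7 were compared, since htseq-count by default counts by strand but the sources used here do not state whether the libraries kept it. Without strand, reads from a gene and from an overlapping partner on the other strand cannot be told apart. INTS7, a subunit of the Integrator complex that shares the stretch printed above with DTL, was at 13, 12 and 13 RPKM untreated, 10, 12 and 11 RPKM with ATRA, 9, 10 and 10 RPKM with palbociclib and 10, 11 and 9 RPKM with the combination. It differed by -0.34 in the combination against untreated cells (SE 0.09, adjusted p = 0.0157) and by -0.14 against ATRA (adjusted p = 1), beside -1.13 and -0.67 for DTL. The pseudogene RPL21P28 lies inside DTL on the other strand and was at 108 to 155 RPKM.

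PCID2 overlaps the start of CUL4A on the other strand. It was at 13, 12 and 13 RPKM untreated, 11, 10 and 10 RPKM with ATRA, 13, 11 and 12 RPKM with palbociclib and 11, 10 and 9 RPKM with the combination. The groups with ATRA lay below the untreated libraries, with -0.29 for ATRA (SE 0.09, adjusted p = 0.0379) and -0.34 for the combination (adjusted p = 0.0134). CUL4A differed by -0.24 and -0.27 in these comparisons, so both genes of this pair were lower with ATRA at 0.05. How far reads of one entered the count of the other was not tested. MCTS1, which overlaps CUL4B, was at 18 to 22 RPKM and did not pass at 0.05 in any comparison. TKFC, which overlaps DDB1, was at 2 to 3 RPKM. WDR76 held no overlapping gene with a value above 0.

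**Figure D5:**
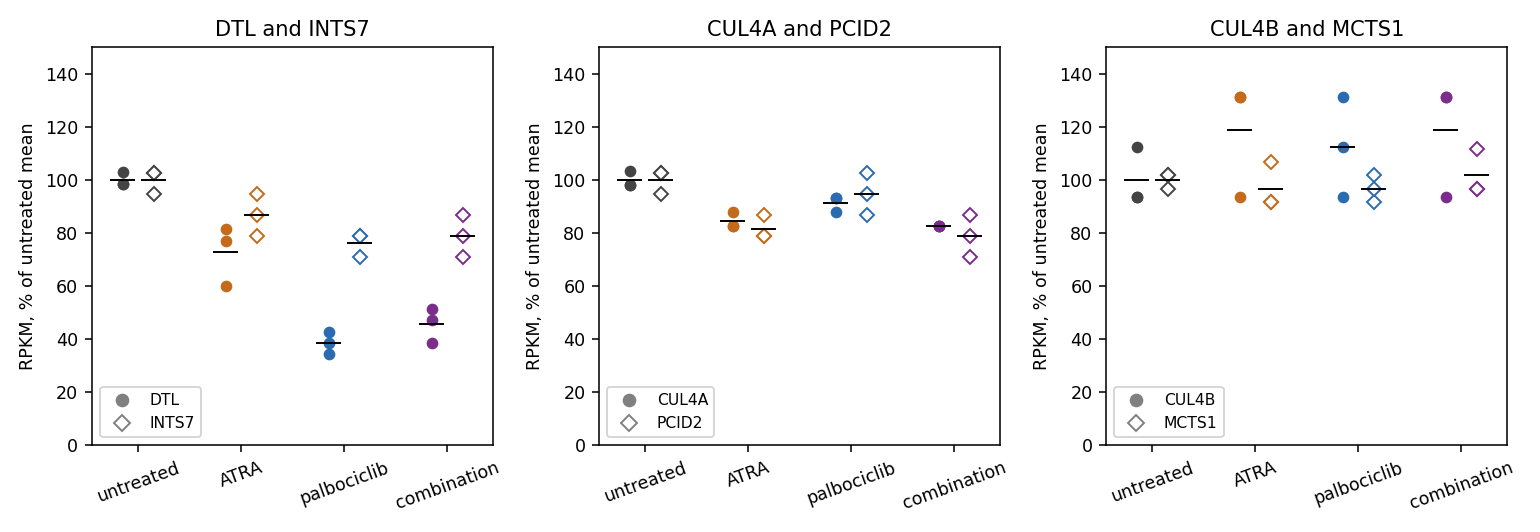
RPKM as a percentage of the untreated mean (vertical axes, from 0) by treatment for DTL, CUL4A and CUL4B (filled circles) and for INTS7, PCID2 and MCTS1 next to them (open diamonds), with horizontal lines for group means. DTL and INTS7 parted with palbociclib, at means of 9.0 RPKM out of 23.3 and 9.67 RPKM out of 12.7, whereas CUL4A and PCID2 lay close together in all 4 groups.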

How the data were processed

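RNA of HL-60 cells was sequenced in 12 libraries, 3 in each of 4 groups taken from the labels. The authors prepared polyadenylated RNA libraries, aligned reads to hg38 by HISAT2, used htseq-count with default settings for gene counts and tested those with voom. The deposited score values are RPKM that the authors gave as whole numbers. How they were brought to whole numbers is not stated, and rounding to the nearest was assumed. Rounding hides differences under 1 RPKM, and neither read numbers nor gene lengths are in the table, so depth and counting error are unknown. The table was not treated as counts.

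limma 3.58.1 in R 4.3.3 was fitted to log2(RPKM + 0.1) of 7820 genes with at least 5 RPKM in at least 3 libraries, with 1 mean per group over all 12 libraries and a variance trend. Fold changes of low genes are understated on this scale. Adjustment was by Benjamini-Hochberg within each comparison. Python 3.11.15 drew the plots. The script was tested on simulated data. The genes, the lists, the thresholds and the filter were chosen with earlier results of these data known. Named genes were the 7 genes, the 5 most correlated with WDR76 and with DTL, and from each list those called at 0.001 or otherwise the 3 with the largest difference between combination and ATRA. Neighbours were genes that overlap a member or start within 1000 bases of it (GENCODE v44). Whether replicates were separate cultures is not labelled, so p-values measure the spread between these samples, which may be technical.

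The labels do not say what a replicate number shares. Same-numbered libraries deviated together from their group means with correlations across genes of 0.438 to 0.908 between treated groups and 0.0453 to 0.367 between untreated and treated ones, so the numbers pair the treated libraries. The block was an alternative. Other alternatives were filters, pseudocounts, median-ratio scaling, no trend, the compared libraries alone and leaving out each library.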

Additional observations from a re-analysis of the deposited data

Results flagged for a closer look

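The change with ATRA in the presence of palbociclib minus that in its absence was 0.89 for WDR76 and 0.70 for DTL on the log2 scale of RPKM + 0.1, and both stood out because the libraries moved in opposite directions. Between untreated and ATRA-treated cells WDR76 was lower in all 3 same-numbered pairs (by 5, 4 and 5 RPKM) and DTL too (by 9, 5 and 5 RPKM), whereas between palbociclib and the combination WDR76 was higher in all 3 (by 1 RPKM) and DTL too (by 1, 2 and 2 RPKM). The interaction test over 7820 genes did not pass for either gene (limma, adjusted p = 1, and 0.159 and 0.157 with the replicate block). Differences of 1 RPKM equal the rounding step of the table. WDR76 and DTL were chosen as low with palbociclib against untreated cells, and the same libraries are used here. That choice favours both of these directions, and a positive departure, in advance.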

How the results depend on the processing

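With the replicate number as a block (replicates pair the treated libraries), genes called at 0.001 moved from 369 to 722 for ATRA, 39 to 83 for palbociclib and 629 to 1204 for the combination, each against untreated cells, and from 243 to 481 for the combination against palbociclib (408 in a block fit of treated libraries, added after the data were seen). Among the 7 genes and the listed ones it changed no call at 0.001 beyond those given in the report for CUL4A, CAND1, CUL1, CDT1 and PCNA. Untreated libraries paired only weakly with treated ones, which limits the block in comparisons against untreated cells. Fits of the compared libraries alone gave 80, 0, 78 and 21. At 0.05 the counts were 1590, 318, 2377 and 977, and 9 for the combination against ATRA instead of 0. A filter of 1 RPKM or none gave 115 for palbociclib against untreated cells, 20 for the combination against ATRA and 85 instead of 0 for the departure from additivity. Without the trend 1 gene was called for the combination against ATRA. Leaving out 1 library gave 171 to 342, 0 to 29, 338 to 593 and 115 to 240.

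Of the 6 genes tested, 0 were called for ATRA against untreated cells and 3 at 0.05. For the combination against untreated cells 2 were called, 0 from the compared libraries alone and 1 to 2 without 1 library. With a filter of 1 RPKM or none 3 were called of the 7 then tested, and 3 with the block, CUL4A being added. WDR76 and DTL were chosen as low against the same untreated libraries. For them the counts against untreated cells are therefore a description and show nothing on stability. For palbociclib against untreated cells, from which the genes were chosen, the counts (2, 0, and 0 to 2) are a description and show nothing on stability. Directions turned only without 1 library, for genes near 0: RBX1 (-0.032 to 0.11 for ATRA and for palbociclib against untreated cells, -0.042 to 0.12 for the combination against ATRA and against palbociclib, -0.086 to 0.074 for the departure), DDB1 (-0.016 to 0.095 for palbociclib against untreated cells, -0.048 to 0.049 for the combination against ATRA, -0.094 to 0.016 for the departure) and CUL4B (-0.050 to 0.23 for the combination against palbociclib). The cause was not tested. Rounding and unknown depth limit DDB2, CUL4B and WDR76 most.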
